A study of Mus musculus with 9 samples.

Results

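Oligodendrocyte precursor cells (OPCs) that stop dividing and commit to becoming oligodendrocytes pass through a short stage in which a small set of genes is switched on. The 10 genes described here mark that stage: Gpr17, Bcas1, Enpp6, Enpp2, Tcf7l2, Itpr2, Myrf, Nkx2-2, Nkx6-2 and Zfp488. Their rows were picked out by gene symbol, and all 10 were found among the 56980 gene identifiers of the count table. All 10 also passed the filter on low counts, which left 17001 genes for testing. For Enpp6 and Nkx6-2 this rested on the p53n libraries, in which they were high.

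Bulk polyA RNA was sequenced from mouse primary OPC lines in 3 groups of 3 libraries. Cells of all groups lacked Trp53, which encodes the tumour suppressor p53 (genotype Trp53 -/-), and grew in medium with PDGF-AA at 10 ng/mL, a growth factor that keeps OPCs dividing. The p53n group is labelled as control and has no further change. The BB-p53n cells also express PDGF-BB, a related growth factor, and received either DMSO vehicle (BB-p53n DMSO) or tazemetostat, an inhibitor of the histone H3K27 methyltransferase EZH2, at 5 µM for 48 hours (BB-p53n EZH2i). DMSO was given only to BB-p53n cells, so PDGF-BB and vehicle cannot be told apart in the comparison with p53n. The labels give neither how PDGF-BB was introduced nor how many lines or clones were used, and they do not say that a group's libraries are separate cultures. Each p-value therefore weighs a group difference only against the variation between libraries of a group, which may be technical variation.

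The sequence of events around commitment is well described. Dividing OPCs carry PDGF receptor alpha and the proteoglycan NG2 and depend on Olig2 and Sox10. As they leave the cycle they raise Gpr17, Bcas1, Enpp6 and Itpr2 for a limited time, together with the transcription factors Tcf7l2, Nkx2-2 and Zfp488, and Myrf then turns on the myelin genes.

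Library totals ranged from 19471768 to 34557109 counts, and 3 counts in a library equal 0.0888 to 0.16 CPM (counts per 1000000 counts of the library, scaled by the trimmed mean of M values, TMM). The OPC label was checked against Pdgfra, Cspg4 and Olig2, the genes of the 2 surface markers and of a lineage transcription factor, and each was abundant in all 9 libraries (Pdgfra 485 to 1583 CPM, Cspg4 257 to 709, Olig2 511 to 974). Matn4 (0 to 0.12 CPM) and Emid1 (0.03 to 0.46), also listed as OPC markers, were low in all 9. Sox10, a defining factor of the whole oligodendrocyte lineage, was at only 1.87 to 2.40 CPM in p53n, against 285 to 317 in BB-p53n DMSO and 452 to 470 in BB-p53n EZH2i. Transcripts of the sex chromosomes also differed. Xist was at 2777 to 3101 CPM in p53n, 46.2 to 65.0 in BB-p53n DMSO and 2.82 to 17.4 in BB-p53n EZH2i, and the Y-linked Ddx3y was at 0.21 to 0.72, 43.0 to 53.6 and 5.86 to 13.2. Effects of PDGF-BB and other differences between the p53n and BB-p53n cells thus cannot be told apart. Xist and Ddx3y were also lower in every tazemetostat library than in any DMSO library, as were the Y-linked Eif2s3y, Kdm5d and Uty. Whether tazemetostat or another difference between these cultures lay behind this was not tested. Changes given below as with or under tazemetostat therefore name the group compared and do not separate the drug from such differences. Mouse Pdgfb was nearly uncounted in every group (0 to 0.24 CPM) and does not check the PDGF-BB label. The part of Trp53 that was deleted is not given in the labels, so its 6.77 to 15.2 CPM checks nothing either.

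Promoters of 6 of the 10 genes (Enpp6, Tcf7l2, Itpr2, Nkx2-2, Nkx6-2 and Zfp488) were in the RefSeq-derived promoter table of build GRCm38.p6. 3 of them are shown, because Enpp6 and Nkx6-2 were almost silent in BB-p53n cells while Nkx2-2 was not, and because Polycomb proteins, the family EZH2 belongs to, are known to gather at promoters rich in CG pairs. Each run is the 250 bases before the annotated start, 5′ to 3′ on the gene's strand, with CG pairs in capitals: Enpp6 at chr8:46986637-46986886 (plus strand), Nkx6-2 at chr7:139582798-139583047 (minus strand) and Nkx2-2 at chr2:147186403-147186652 (minus strand).
Enpp6: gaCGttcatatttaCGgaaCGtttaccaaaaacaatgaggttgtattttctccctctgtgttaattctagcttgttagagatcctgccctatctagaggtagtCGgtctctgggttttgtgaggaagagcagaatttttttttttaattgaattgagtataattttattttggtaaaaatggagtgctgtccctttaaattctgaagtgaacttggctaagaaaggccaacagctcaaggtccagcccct
Nkx6-2: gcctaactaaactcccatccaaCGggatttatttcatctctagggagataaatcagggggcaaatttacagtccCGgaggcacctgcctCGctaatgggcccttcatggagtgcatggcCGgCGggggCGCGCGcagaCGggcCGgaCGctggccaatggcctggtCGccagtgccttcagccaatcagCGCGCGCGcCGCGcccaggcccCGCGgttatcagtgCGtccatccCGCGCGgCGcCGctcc
Nkx2-2: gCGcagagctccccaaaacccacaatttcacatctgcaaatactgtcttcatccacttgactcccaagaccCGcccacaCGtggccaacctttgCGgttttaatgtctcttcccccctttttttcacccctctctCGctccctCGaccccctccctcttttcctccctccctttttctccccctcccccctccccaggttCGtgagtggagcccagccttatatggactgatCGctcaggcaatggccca

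The 6 promoters differed widely in CG pairs. Enpp6 held 4, Nkx2-2 8, Zfp488 14, Itpr2 22 and Nkx6-2 26, and the 2 Tcf7l2 entries held 30 and 7. Over 32851 promoters of the same length the median was 6, with quartiles of 2 and 16. The genes with the fewest CG pairs (Enpp6) and with nearly the most (Nkx6-2) were the ones at the lowest level in BB-p53n cells. A SOX core (ACAAAG, or CTTTGT on the other strand), present in 16.5% of promoters, matched once, in the second Tcf7l2 entry. Neither the E-box CAGCTG, found in 13% of promoters and identical on both strands, nor the TCF/LEF core (ATCAAAG or CTTTGAT, 3.2%) was in any of them. The TCF/LEF core ends in the letters CAAAG that also end the SOX core, so the searches are not independent.

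All 10 genes were lower in BB-p53n DMSO than in p53n libraries. Each passed edgeR's quasi-likelihood test with Benjamini-Hochberg adjustment over all genes at 0.05, where 34.0% of the 17001 genes tested were called lower and 35.3% higher. For each of the 10 genes, every BB-p53n DMSO library lay below every p53n library, a pattern that 37.7% of all genes showed. At least 2-fold falls were called for 8 of the 10, against 17.1% of all genes, and the median log2 fold change of the 10 was -2.10, against -0.02 over all genes. Enpp6 and Nkx6-2, tested only because they were high in p53n, had to differ here, and the other 8 genes had counts in every library of both groups. Both enter the median and the count of at least 2-fold falls. The falls ran from 1.71-fold for Itpr2 to 133-fold for Enpp6. In bulk RNA, fewer cells at this stage and less RNA per cell cannot be told apart.

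**Figure D1:**
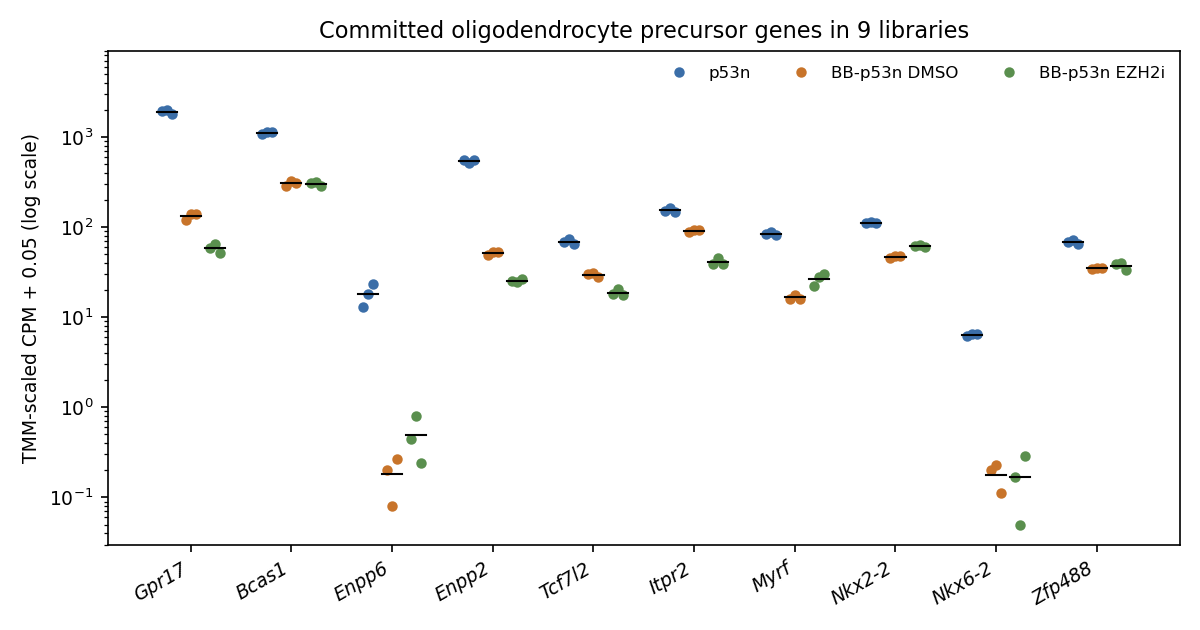
TMM-scaled CPM (plus 0.05, log axis) of the 10 genes; each point is a library and each black line the mean of 3. The p53n points lie above the points of both other groups for every gene, and Enpp6 and Nkx6-2 fall from above 6 CPM to below 1.

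Gpr17 (ENSMUSG00000052229, chr18:32076050-32082689 in GRCm39, minus strand) encodes a G protein-coupled receptor that appears briefly on committed precursors and holds back their final maturation. It was the most abundant of the 10 in p53n cells, at 1940, 1966 and 1805 CPM, and stood at 119.4, 137.5 and 138.8 CPM with PDGF-BB and DMSO and at 57.8, 64.3 and 51.2 CPM with tazemetostat. The 3 groups did not overlap. The fall from p53n to BB-p53n DMSO was 14.4-fold (log2 fold change -3.85 ± 0.09 SE, adjusted p = 3.7e-18). Summed over the 10 genes, p53n libraries held 3983 to 4127 CPM, of which Gpr17 made up 45.3% to 47.6%. The sum was 668 to 736 CPM in BB-p53n DMSO, with Gpr17 at 17.9% to 19.4%, and 540 to 598 CPM in BB-p53n EZH2i, with Gpr17 at 9.48% to 10.7%. Leaving out Gpr17, the sum still fell from 2142 to 2178 CPM in p53n to 549 to 598 CPM in BB-p53n DMSO. Gpr17 shares 188 of its 5195 exon bases with Lims2 on the opposite strand. Lims2, which is itself on the list of other committed-stage markers, fell from 69.0 to 10.6 CPM in the same comparison (-2.70 ± 0.11 SE), and as the counting command in the file header sets no strand option, reads from the 2 genes cannot be told apart in the shared bases.

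Bcas1 (ENSMUSG00000013523, chr2:170188911-170269765, minus strand), whose protein marks oligodendrocytes as they begin to myelinate, was at 1087, 1116 and 1133 CPM in p53n. With PDGF-BB and DMSO it was at 287, 323 and 308 CPM, a 3.64-fold fall (-1.86 ± 0.07 SE, adjusted p = 2.5e-15), and it was then the most abundant of the 10. Tazemetostat libraries held 308, 314 and 282 CPM, within the DMSO range but for the lowest of them. Of the 3775 exon bases of Bcas1, 474 overlap the antisense transcripts Bcas1os1 and Bcas1os2, which have few counts (548 and 1450 over all 9 libraries).

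Enpp2 and Enpp6 encode enzymes that act outside the cell on lipids: autotaxin, the secreted enzyme that makes lysophosphatidic acid (LPA), and a choline-specific phosphodiesterase that marks newly forming oligodendrocytes. Enpp2 (ENSMUSG00000022425, chr15:54702297-54816288, minus strand) was at 555, 510 and 548 CPM in p53n and at 49.4, 52.05 and 52.1 CPM in BB-p53n DMSO, 10.5-fold lower (-3.39 ± 0.07 SE, adjusted p = 5.4e-19). It then stood at 25.4, 24.3 and 26.4 CPM with tazemetostat, so the 3 groups were again apart. The antisense transcript Gm26684 shares 345 of the 5779 exon bases of Enpp2 but had only 7 counts over all libraries. Enpp6 (ENSMUSG00000038173, chr8:47439922-47549797, plus strand) varied most between replicates: 13.1, 17.8 and 23.2 CPM in p53n, from 376, 428 and 552 counts. In BB-p53n DMSO the counts were 5, 1 and 7, or 0.15, 0.03 and 0.22 CPM, which are close to the 3-count floor of a library. The fitted difference was -7.06 ± 0.38 SE (adjusted p = 5.0e-10). With tazemetostat the counts were 10, 14 and 4, or 0.40, 0.75 and 0.19 CPM.

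Itpr2 (ENSMUSG00000030287, chr6:146009797-146403721, minus strand) encodes the type 2 inositol trisphosphate (IP3) receptor, a calcium channel of the endoplasmic reticulum. Its fall was the smallest of the 10: 152, 164 and 148 CPM in p53n against 87.5, 92.1 and 92.2 CPM in BB-p53n DMSO, a 1.71-fold difference (-0.77 ± 0.07 SE, adjusted p = 8.7e-09). It was lower again with tazemetostat, at 38.6, 45.1 and 38.6 CPM.

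Among the 5 transcription factors, Nkx6-2 (ENSMUSG00000041309, chr7:139159292-139162713, minus strand) fell most. This homeodomain factor of late oligodendrocyte development was at 6.18, 6.45 and 6.39 CPM in p53n (178, 155 and 152 counts). BB-p53n DMSO libraries had 5, 6 and 2 counts and BB-p53n EZH2i libraries 3, 0 and 5, with a fitted difference of -5.55 ± 0.35 SE between DMSO and p53n (adjusted p = 1.5e-11). Of its 1907 exon bases, 246 overlap Inpp5a on the opposite strand, and Inpp5a moved the other way, by 0.24 ± 0.09 SE. Myrf (ENSMUSG00000036098, chr19:10185636-10218112, minus strand), a membrane-bound factor that cleaves itself and then switches on myelin genes, was at 82.7, 87.8 and 80.4 CPM in p53n and 15.9, 17.6 and 16.0 CPM in BB-p53n DMSO, 5.07-fold lower (-2.34 ± 0.10 SE, adjusted p = 2.3e-14). The tazemetostat libraries lay between, at 22.04, 28.0 and 30.1 CPM.

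The other 3 factors changed about 2-fold between p53n and BB-p53n DMSO. Nkx2-2 (ENSMUSG00000027434, chr2:147019466-147036163, minus strand), a homeodomain factor that represses Pdgfra as precursors commit, fell from 112, 113 and 109.6 CPM to 44.9, 47.8 and 47.4 CPM (-1.26 ± 0.07 SE, adjusted p = 9.0e-13). Tcf7l2 (ENSMUSG00000024985, chr19:55730252-55922086, plus strand), a partner of beta-catenin in Wnt signalling that is switched on for a short time at commitment, fell from 67.3, 74.1 and 63.9 CPM to 30.2, 31.1 and 27.6 CPM (-1.21 ± 0.08 SE). Zfp488 (ENSMUSG00000044519, chr14:33689027-33700721, minus strand), a zinc-finger co-repressor that works with Olig2, fell from 67.4, 72.3 and 64.1 CPM to 33.8, 34.9 and 35.1 CPM (-0.97 ± 0.08 SE). For all 3 the spread within a group was much smaller than the distance between the groups.

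Compared per kilobase of exon, the order of the 10 genes was not the same in the 3 groups. In p53n it ran from Gpr17 (366.5 ± 16.6 CPM per kb, SD, n = 3) through Bcas1 (294.6 ± 6.18), Enpp2 (93.05 ± 4.25), Nkx2-2 (38.8 ± 0.65) and Zfp488 (15.8 ± 0.95) to Itpr2, Myrf, Tcf7l2, Nkx6-2 and Enpp6. Itpr2 and Myrf overlapped, as did Nkx6-2 and Enpp6. In BB-p53n DMSO, Bcas1 led at 81.0 ± 4.78 CPM per kb, followed by Gpr17 (25.4 ± 2.09), Nkx2-2 (16.2 ± 0.53), Enpp2 (8.85 ± 0.27) and Zfp488 (8.04 ± 0.17). In BB-p53n EZH2i, Bcas1 led at 79.8 ± 4.50 and Nkx2-2 (21.3 ± 0.42) stood above Gpr17 (11.1 ± 1.26). Gpr17 thus ranked 1, 2 and 3 in p53n, BB-p53n DMSO and BB-p53n EZH2i.

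Between BB-p53n EZH2i and BB-p53n DMSO libraries the 10 genes moved in different directions. Called lower were 4 (Gpr17, Enpp2, Itpr2, Tcf7l2), called higher were 3 (Enpp6, Myrf, Nkx2-2), and 3 were not called (Bcas1, Nkx6-2, Zfp488). In this comparison 35.6% of all genes were called lower, 37.3% higher and 72.9% in either direction, so 7 of 10 called is near the background. The groups did not overlap for 6 of the 10, against 75.3% of all genes, and the median was -0.05, against 0.02 over all genes.

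The size of these changes moved with the GC content of the transcripts. Among genes whose log2 CPM averaged 1 or more, the median log2 fold change was -1.41 in the lowest decile by GC content (31.0% to 41.2% GC) and 0.83 in the highest decile (57.8% to 71.4%), against -0.26 and 0.20 for BB-p53n DMSO and p53n. Each member is therefore given both as counted and after a smooth trend on GC content and length was removed from every library. After that step 29.2% of 16652 genes were called lower and 28.7% higher, 56.3% of the earlier calls were kept in the same direction, and 5 of the 10 members were called lower and 3 higher.

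Gpr17 was lower with tazemetostat under both treatments of the data (-1.19 ± 0.08 SE, adjusted p = 1.3e-10 as counted, and -1.61 ± 0.07 SE with the trend removed). Enpp2 was also lower under both, by -1.01 ± 0.07 SE and -0.42 ± 0.06 SE, and Itpr2 by -1.15 ± 0.08 SE and -0.61 ± 0.07 SE. Tcf7l2 was lower as counted, at 18.0, 20.2 and 17.7 CPM (-0.67 ± 0.09 SE, adjusted p = 1.1e-06), but not called with the trend removed (-0.16 ± 0.08 SE, adjusted p = 0.0986). Thus the receptor, autotaxin and the calcium channel kept their calls, and the Wnt effector did not.

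Myrf was the member with a rise called both ways and groups apart, at 0.69 ± 0.10 SE as counted (adjusted p = 3.6e-06) and 0.27 ± 0.08 SE with the trend removed (adjusted p = 0.00788). Nkx2-2 was higher as counted, at 60.8, 62.6 and 60.4 CPM (0.39 ± 0.07 SE, adjusted p = 2.6e-05), and lower with the trend removed (-0.35 ± 0.06 SE, adjusted p = 4.0e-05), so its direction depends on that step. Enpp6 was called higher at 1.69 ± 0.71 SE (95% interval 0.15 to 3.23, adjusted p = 0.0461), but its groups overlapped and it rested on 13 counts against 28. With the trend removed it was 2.64 ± 0.68 SE (adjusted p = 0.00287). As counted, the call was lost without BB-p53n DMSO replicate 1 (adjusted p = 0.0862) or 2 (0.128), or without BB-p53n EZH2i replicate 1 (0.106) or 2 (0.19). The log2 fold change of Enpp6 ranged from 1.19 to 1.79 over these 4.

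The 3 uncalled genes differ in what the data allow. Bcas1 was measured closely and differed by -0.02 (95% interval -0.16 to 0.12, adjusted p = 0.784) as counted, though it was called lower with the trend removed (-0.31 ± 0.06 SE, adjusted p = 8.6e-05). Zfp488, at 38.7, 39.4 and 33.3 CPM with tazemetostat, differed by 0.10 (interval -0.07 to 0.27, adjusted p = 0.272), and by 0.18 ± 0.07 SE with the trend removed (adjusted p = 0.039). For Nkx6-2, near the floor in both groups, the interval was -1.54 to 1.37, so a 2-fold change in either direction was not detectable at this depth, and with the trend removed the difference was -0.94 ± 0.67 SE (adjusted p = 0.238). None of the intervals shows that levels were equal.

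**Figure D2:**
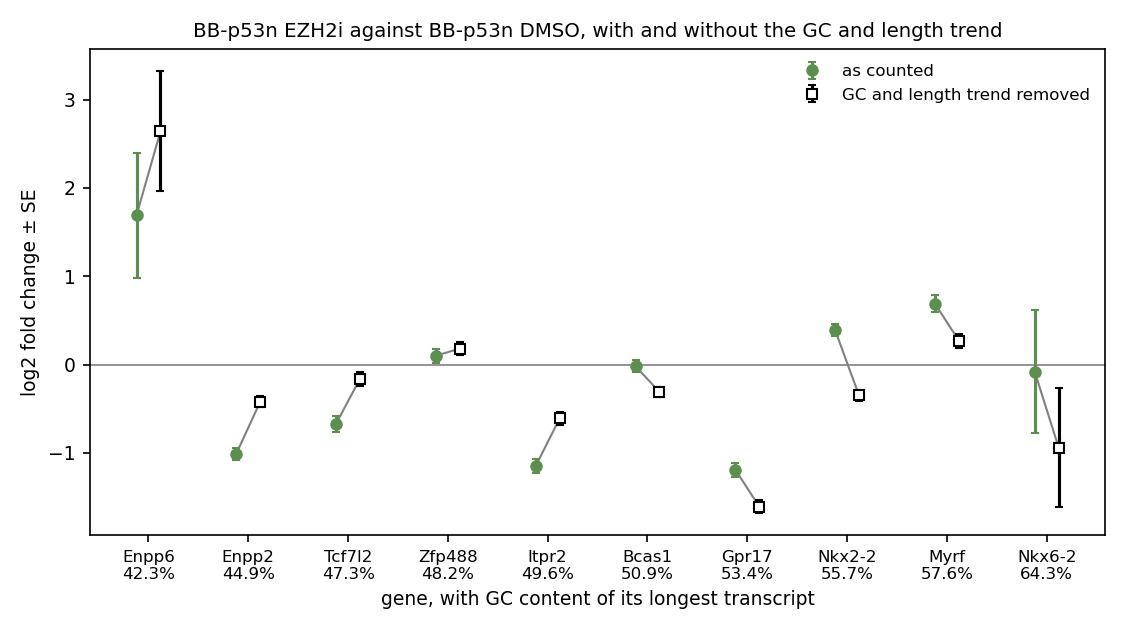
Log2 fold changes of BB-p53n EZH2i against BB-p53n DMSO (y axis, bars ± SE) for the 10 genes ordered by the GC content of the longest transcript, as counted (circles) and after removal of the trend on GC content and length (squares). Enpp2, Tcf7l2 and Itpr2 move towards 0, Gpr17 moves away from it, and Nkx2-2 crosses from 0.39 to -0.35.

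Tazemetostat-treated BB-p53n cells stayed below p53n cells for all 10 genes, where 41.7% of all genes were called lower, and no gene's groups overlapped (41.9% of all genes lay apart and lower). Enpp6 and Nkx6-2, tested only because they were high in p53n, had to differ in this comparison too. This comparison shares its libraries with the other 2. Its log2 fold changes were -5.04 for Gpr17, -1.88 for Bcas1, -5.36 for Enpp6, -4.41 for Enpp2 and -1.92 for Itpr2. For the transcription factors they were -1.88 for Tcf7l2, -1.65 for Myrf, -0.86 for Nkx2-2, -5.64 for Nkx6-2 and -0.87 for Zfp488. The GC trend was steepest here (decile medians from -1.63 to 1.01), and with it removed all 10 were still called lower. That step moved 4 genes by over 1.5 times, to -1.76 for Nkx2-2, -6.83 for Nkx6-2, -4.34 for Enpp6 and -5.63 for Gpr17. Myrf, the called rise under tazemetostat, thus remained 3.14-fold below its p53n level, and Gpr17 was 32.98-fold below.

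**Figure D3:**
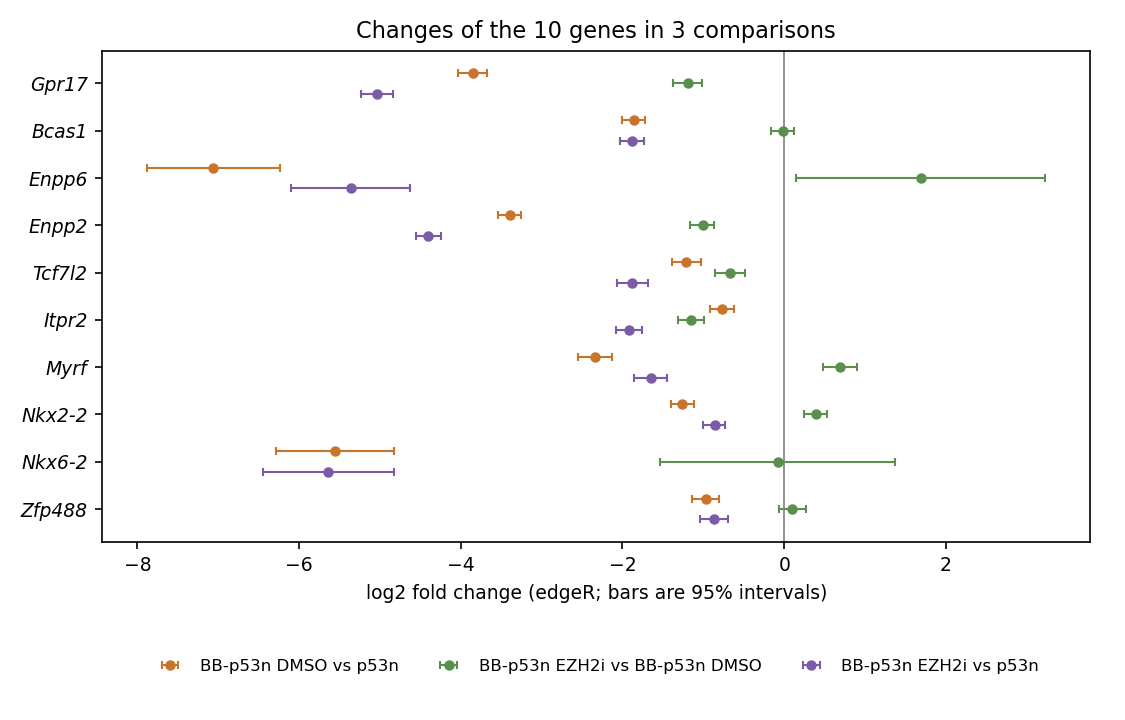
Log2 fold changes (x axis) with 95% intervals for the 10 genes in the 3 comparisons. All intervals against p53n lie below 0, while those between BB-p53n EZH2i and BB-p53n DMSO fall on both sides of it.

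Other genes of the same stage changed less uniformly. Of 18 tested markers of committed OPCs and newly formed oligodendrocytes outside the 10, 11 were called lower and 4 higher in BB-p53n DMSO against p53n (median -1.51). Tmem163, a zinc transporter, had the largest called fall (18.9 to 1.20 CPM, -3.97 ± 0.19 SE) and Cemip2, a cell-surface hyaluronidase, the largest called rise (23.2 to 47.4 CPM, 1.03 ± 0.09 SE). Of 16 tested myelin and mature oligodendrocyte genes, 9 were called lower and 3 higher (median -1.43), from Mbp, which encodes myelin basic protein (8.74 to 1.10 CPM, -2.99 ± 0.21 SE), to Anln, which encodes the actin-binding protein anillin (27.9 to 162 CPM, 2.54 ± 0.08 SE). Of 16 OPC markers tested, 11 were called lower and 5 higher (median -0.60), with Tmem100 at one end (-1.94 ± 0.07 SE) and Xylt1, a xylosyltransferase of proteoglycan synthesis, at the other (1.29 ± 0.06 SE). With tazemetostat against DMSO, the committed-stage markers split into 7 higher and 6 lower, from Kif19a (1.26 ± 0.15 SE, 0.50 ± 0.14 SE with the trend removed) to Sema5a (-1.28 ± 0.08 SE, -0.12 ± 0.07 SE). The myelin genes split into 6 and 5, from the iron carrier gene Trf (2.34 ± 0.13 SE, 1.84 ± 0.12 SE) to Ugt8a (-1.36 ± 0.09 SE, -0.02 ± 0.08 SE). The OPC markers were 4 higher and 10 lower, from Cspg5 (0.75 ± 0.07 SE) to Pcdh15 (-2.25 ± 0.07 SE), both as counted. With the trend removed, 6 committed-stage markers were called higher and 5 lower, 6 and 4 of the myelin genes, and 3 and 11 of the OPC markers.

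The transcription factors that act with these genes did not move as a block. Of 24 tested, 6 were called higher and 10 lower when BB-p53n DMSO was set against p53n. Sox10, which is known to activate Myrf, rose from 2.21 ± 0.29 to 299.5 ± 16.4 CPM (SD, n = 3), a log2 fold change of 7.07 ± 0.10 SE, while Myrf and the other 9 genes fell. Its relative Sox8 fell from 446 to 89.2 CPM (-2.32 ± 0.07 SE). Olig2, the partner of Zfp488, rose from 534 to 805 CPM (0.59), and St18, a zinc-finger factor, fell from 1.75 to 0.10 CPM (-4.05). With tazemetostat, Sox10 was at 459 ± 9.60 CPM, 0.62 ± 0.07 SE higher as counted and -0.22 ± 0.06 SE with the trend removed.

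Genes listed as holding back differentiation were split as well. In BB-p53n DMSO against p53n, 13 of 25 were called lower and 10 higher, with Id1, a dominant-negative partner of helix-loop-helix factors, at one end (16.9 to 0.64 CPM, -4.71 ± 0.19 SE) and the cell-cycle factor gene E2f1 at the other (3.64 to 34.7 CPM, 3.25 ± 0.10 SE). Under tazemetostat 14 of the 25 were called lower and 5 higher as counted, and 14 and 4 with the trend removed. Tmem98, whose protein binds Myrf and blocks its cleavage, had the largest called rise, from 8.42 to 30.2 CPM (1.84 ± 0.12 SE, 0.94 ± 0.11 SE with the trend removed), after a fall from 23.5 to 8.42 CPM between p53n and BB-p53n DMSO. The receptor phosphatase gene Ptprz1 had the largest called fall (-1.88 ± 0.07 SE as counted).

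Close relatives of the 10 genes mostly went the other way. In BB-p53n DMSO against p53n, 10 of the 16 tested relatives were called higher and 2 lower (median 1.56). Of all genes tested, 35.3% were called higher and 34.0% lower. Some relatives were tested only because of their counts in BB-p53n libraries, which favours a rise. Among these were Lef1, P2ry12 and Nkx2-4, with 4, 12 and 14 counts in p53n. Among the IP3 receptors, Itpr1 rose from 12.4 to 79.2 CPM (2.68 ± 0.10 SE) and Itpr3 from 0.69 to 2.62 CPM (1.90) while Itpr2 fell. Per kilobase, Itpr2 was at 10.4 and Itpr1 at 0.68 in p53n, against 6.12 and 4.32 in BB-p53n DMSO and 2.76 and 3.42 in BB-p53n EZH2i, in which Itpr1 stood above Itpr2. Between the last 2 groups Itpr1 was called lower as counted (-0.34) and higher with the trend removed (0.36).

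The other families showed a similar split. Among the TCF/LEF factors, Tcf7l2 and Tcf7l1 fell (Tcf7l1 from 37.6 to 11.01 CPM, -1.77) while Tcf7 (1.15 to 3.38 CPM, 1.51) and Lef1 (0.05 to 1.02 CPM, 4.17, from 4 counts in p53n) rose. Tcf7l2 was nonetheless the highest of the 4 per kilobase in BB-p53n DMSO only narrowly, at 3.33 ± 0.20 against 2.81 ± 0.15 CPM per kb for Tcf7l1, and in p53n the order was reversed, at 7.70 ± 0.59 and 9.59 ± 1.46. Among the ENPP enzymes, Enpp1 (2.24), Enpp3 (1.61) and Enpp4 (0.82) rose as Enpp2 and Enpp6 fell. Enpp5 fell slightly (-0.22) and per kilobase, at 12.2 CPM, lay above Enpp2 (8.85) in BB-p53n DMSO, whereas in p53n it was at 14.2 against 93.05.

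**Figure D4:**
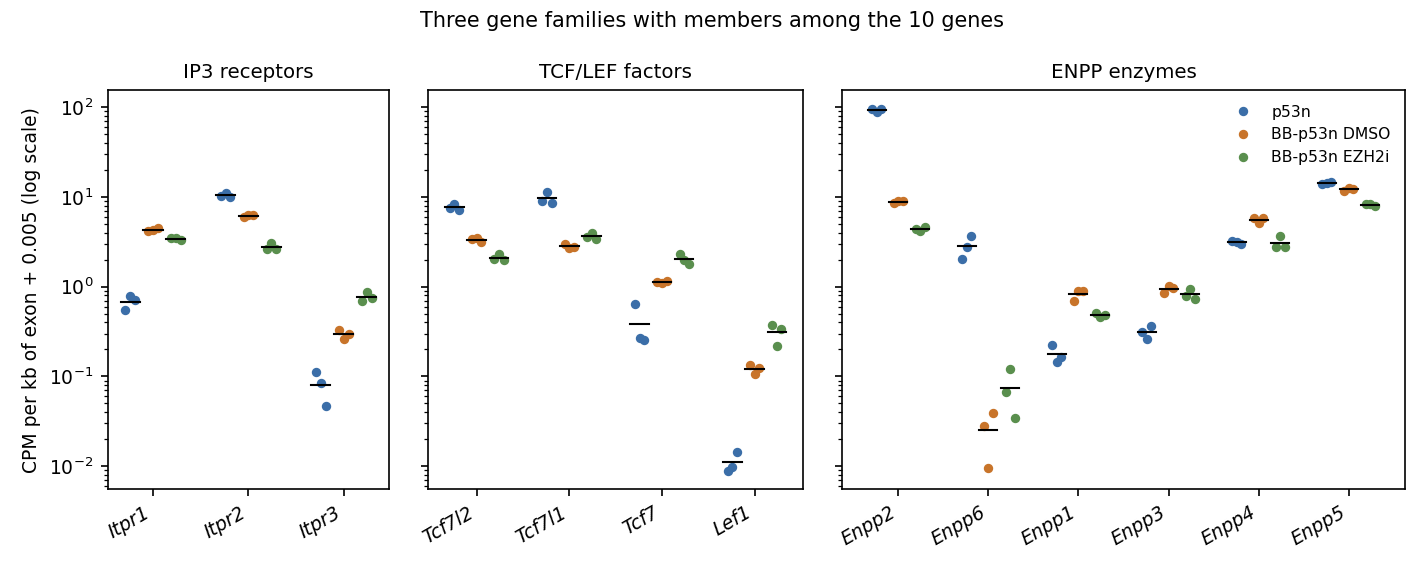
CPM per kb of exon (plus 0.005, log axis) for 3 families that include members of the 10 genes; points are libraries and black lines means of 3. Itpr2, Tcf7l2, Enpp2 and Enpp6 are lower in both BB-p53n groups than in p53n, whereas Itpr1, Itpr3, Tcf7, Lef1, Enpp1 and Enpp3 are higher.

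Genes of the pathways in which Enpp2, Tcf7l2 and Enpp6 act were also listed, whether they act before or after these members. Of 8 tested receptors and phosphatases for LPA, the product of autotaxin, 2 were called higher and 2 lower in BB-p53n DMSO: Lpar2 (1.21) and Plpp1 (1.23), and Lpar4 (4.00 to 0.52 CPM, -2.93) and Plpp3 (266 to 88.2 CPM, -1.59). Lpar1, the LPA receptor best known in oligodendrocytes, was near 1 CPM in both groups and not called (-0.21, adjusted p = 0.581). Of 23 tested Wnt pathway genes, 15 were called higher and 6 lower (median 0.79). Axin2, a common readout of Wnt signalling, rose from 10.8 to 19.5 CPM (0.84), Nkd1 rose (1.07), the secreted inhibitor gene Wif1 rose from 0.39 to 10.2 CPM (4.69), and the inhibitor gene Apcdd1, a known target in oligodendrocyte precursors, fell from 89.2 to 11.9 CPM (-2.90). Of 11 genes of sphingomyelin and choline ester metabolism, the pathway Enpp6 belongs to, 5 were called lower and 1 higher, with the intracellular glycerophosphocholine phosphodiesterase gene Gpcpd1 falling most (283 to 73.7 CPM, -1.94 ± 0.10 SE) and Sgms2 rising (1.28 to 6.49 CPM, 2.33 ± 0.18 SE).

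Markers of other cell types moved in the same comparison. Of 12 astrocyte markers, 11 were called lower and 1 higher in BB-p53n DMSO, with a median of -2.43 beside -2.10 for the 10 genes. The latter median includes Enpp6 and Nkx6-2, which were tested only because they were high in p53n. The summed level of the astrocyte markers went from 1761 to 1960 CPM in p53n to 1167 to 1188 CPM. The defining astrocyte genes Aqp4 (2.98 to 5.26 CPM in p53n, 0.03 to 0.09 in BB-p53n DMSO, no count with tazemetostat) and Gfap (8.71 to 17.4, 0.71 to 1.25 and 0.21 to 0.79 CPM) were low throughout. Aldh1l1 and Gja1 were low too, with means of 4.4 and 8.3 CPM in p53n and less in the other groups. Other markers of the list were abundant. In the same order of groups, Slc1a3 averaged 620, 389 and 281 CPM and Acsbg1 150, 110 and 251 CPM. Of 9 tested Schwann and neural crest markers, which include Sox10, 8 were called higher and 1 lower, and the sum of the 10 listed went from 259 to 282 CPM in p53n to 973 to 1033 CPM in BB-p53n DMSO and 1179 to 1203 CPM in BB-p53n EZH2i. Besides Sox10, genes with large rises included Pou3f1 (2.09 to 130 CPM) and Pmp22 (19.2 to 207 CPM). Most of the p53n sum came from Ncam1 (240 CPM in p53n, 326 in BB-p53n DMSO). Aldh1l1, Gja1, Slc1a3, Acsbg1, Pou3f1, Pmp22, Ncam1 and Map2 were named after their values were seen. Of 11 tested neuron markers 7 were called lower and 3 higher, with sums of 2129 to 2159, 1753 to 1913 and 633 to 754 CPM in p53n, BB-p53n DMSO and BB-p53n EZH2i. Most of each sum came from Map2, which averaged 1489, 1424 and 448 CPM in these groups. With tazemetostat against DMSO, 6 of the 11 were called lower and 3 higher as counted. They ran from Dcx (212 to 54.7 CPM, -1.95 ± 0.07 SE) to Rbfox3 (1.33 to 6.17 CPM, 2.21 ± 0.20 SE). Microglia markers (19.3 to 21.1 CPM summed in p53n) and endothelial, mural and fibroblast markers (10.98 to 14.3) stayed under 22 CPM in every library. The share of counts from mitochondrial genes was 4.46% to 5.76% in p53n, 2.44% to 2.62% in BB-p53n DMSO and 1.34% to 1.54% in BB-p53n EZH2i. The part of these differences in the fall of the 10 genes was not tested.

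**Figure D5:**
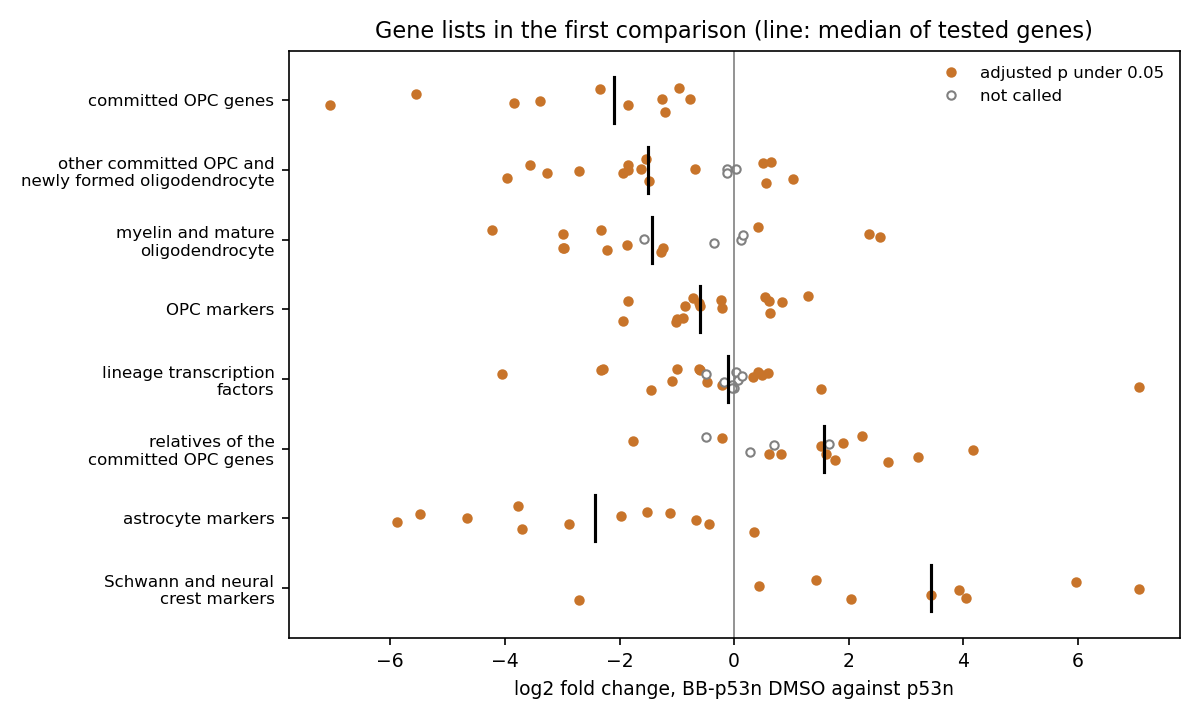
Log2 fold changes of BB-p53n DMSO against p53n (x axis) for the tested genes of 8 lists; filled points were called, open points were not, and black lines are medians. The 10 committed OPC genes all lie below 0 (median -2.10), the relatives mostly above it (median 1.56). Enpp6 and Nkx6-2, tested only because they were high in p53n, are among the 10.

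The neighbourhood of most members did not share their fall. Within 500 kb of each gene, the median log2 fold change of the other tested genes between BB-p53n DMSO and p53n ranged from -0.23 to 0.61 for 8 of the 10. It was -0.84 around Zfp488 (9 genes, 5 called lower and 2 higher), on a chromosome whose own median was -0.49 (chromosome 14, 567 genes), and -1.97 around Nkx2-2 (8 genes, 6 lower and 2 higher), where chromosome 2 as a whole was at 0.02. The genes near Nkx2-2 were looked at after these values were seen. Kiz, a centrosome gene, fell from 181 to 30.3 CPM (-2.58 ± 0.08 SE) and the antisense transcript Nkx2-2os from 7.91 to 1.5 CPM (-2.40 ± 0.21 SE). Also among the lower were 6430503K07Rik (-1.49 ± 0.28 SE), within the span of Nkx2-2, and Gm14113 (-2.03 ± 0.24 SE), within that of Nkx2-2os. The 8 are therefore not independent neighbours. Xrn2, between Nkx2-2 and Kiz, rose slightly (133 to 149 CPM, 0.16 ± 0.06 SE), and Nkx2-4 rose at a low level (0.19 to 0.63 CPM, 1.76 ± 0.47 SE). Nkx2-2os shares 278 exon bases with Nkx2-2, 9.7% of that gene's exon length.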

How the data were processed

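The authors deposited 1 table of raw read counts per gene for 9 libraries, made per the submitters' processing notes with Trimmomatic, Subread and featureCounts on GRCm39. The file header names featureCounts version 1.6.3, a mapping quality minimum of 20 and Ensembl release 108. Its command sets no strand option and counts exon reads per gene from pairs with both ends mapped. Symbols were found for 52073 of 56980 identifiers. Counts were fitted with edgeR 4.0.16 (R 4.3.3): filterByExpr, TMM factors, glmQLFit with robust estimation over all 9 libraries by group, and glmQLFTest, with Benjamini-Hochberg adjustment over 17001 genes and a threshold of 0.05. Replicates spread by a biological coefficient of variation of 0.081. The step was tested on simulated data. Per-kilobase values divide CPM by the deposited exon length. The GC and length trend was fitted per library with mgcv 1.9.3 and passed on as an offset. Totals of 19471768 to 34557109 counts set the precision, and no 2 libraries agreed within sampling noise. DESeq2 1.42.0, other scalings, no filter, left-out libraries and a replicate block were alternatives.

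The 10 genes and all lists were chosen with earlier results of these data known. From the relatives, LPA, Wnt and transcription factor lists any gene could be named, and from other lists whichever called gene rose most and whichever fell most (average log2 CPM of at least 1), except genes used to check cell types or sharing exon bases with a member. Genes whose levels follow Gpr17 are not given, because the libraries form 3 separate clusters.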

Additional observations from a re-analysis of the deposited data

How the results depend on the processing

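Of 718 values recomputed over 19 other settings, 683 counted as kept. For a single gene this meant the same call and direction, or no call in either setting whatever the sign. Counts were kept when within 1.5-fold of the main value. Medians were kept when they moved by less than the spread between libraries, whatever the sign. All 10 genes were called lower in both comparisons with p53n under every setting run. For BB-p53n DMSO against p53n the median of the 10 moved from -2.10 to -2.25 (upper-quartile factors), -2.18 (library totals only), -2.04 (no filter), -2.25 (GC and length trend removed), -2.26 (trend removed with a replicate block) and -2.03 (without chromosomes X, Y and MT), and lay at -2.13 to -2.02 with 1 library left out. For BB-p53n EZH2i against p53n the median was -1.99 with upper-quartile factors or library totals only, -2.27 with the trend removed and -2.28 with the block added. Upper-quartile factors moved the median of all genes in the first comparison from -0.02 to -0.16.

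For BB-p53n EZH2i against BB-p53n DMSO the median of the 10, -0.05, has no stable sign: it was -0.15 (no filter), -0.33 (trend removed, with or without a replicate block) and -0.14 (without X, Y and MT), 0.06 without BB-p53n DMSO replicate 2, 0.01 without BB-p53n EZH2i replicate 2, and -0.31 to 0.06 over all left-out libraries. Fitted on these 2 groups alone, Enpp6 and Nkx6-2 did not pass the filter and the median of the other 8 was -0.43. Removing the trend, with or without the block, gave -0.31 for Bcas1 (called), 0.18 for Zfp488 (called), -0.16 for Tcf7l2 (not called) and -0.35 for Nkx2-2 (turned). Enpp6 lost its call with library totals only (log2 fold change 1.69, adjusted p = 0.0578) and without X, Y and MT (1.61, adjusted p = 0.0577). With 1 library left out, Enpp6 had log2 fold changes from 1.19 to 2.21. It stayed called with DESeq2 (1.74, adjusted p = 0.0159), the replicate block (1.72, 0.0146), no filter (1.59, 0.00338), and with the trend removed (2.64, 0.00287) or the block added to that (2.68, 4.9e-04). The causes were not tested.

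Same-numbered libraries of BB-p53n DMSO and EZH2i correlated at 0.40, 0.31 and -0.06 in their deviations from the group means, and those of p53n and BB-p53n DMSO at -0.16, 0.00 and -0.05, so the numbers were not taken as pairs. With the replicate block, Gpr17 stayed at -3.85, genes called higher in BB-p53n DMSO against p53n went from 6008 to 5962, and no member's call changed. Depth limits Enpp6 and Nkx6-2 in BB-p53n cells, where a library held at most 14 counts of either.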
